A study of Mus musculus with 12 samples.

Results

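Glucose, amino acid and monocarboxylate transporters are membrane proteins of the solute carrier (Slc) superfamily. The genes described here are the 71 of 27825 in the deposited table whose symbol belongs to family Slc1, Slc2, Slc3, Slc5, Slc7, Slc16, Slc36, Slc38 or Slc43. Of these, 59 had a mean of at least 10 normalized counts over the 12 libraries and were tested, and 12 were below that level. A normalized count is a gene's read count divided by a scale factor of its library. The study sequenced messenger RNA in bulk from sorted endothelial cells, the cells that line vessels, of mouse mesentery (the fold of tissue through which vessels reach the intestine) and of the epididymal fat pad. All groups were male ROSA26-eYFP+/+ Cdh5-CreERT2+ mice: in them tamoxifen, eaten with the food for 2 weeks from 6 weeks of age, activates a Cre recombinase driven by the endothelial gene Cdh5 and so a yellow fluorescent protein. From 8 weeks of age the mice ate normal chow (NC, 5.8% fat) or a high fat diet (HFD, 60% fat) for 12 to 13 weeks. Both tissues were digested with actinomycin D, a blocker of transcription, present, and fluorescent cells were sorted from the pooled tissue of 6 mice per sample. Each of the 4 groups, mesentery or epididymal fat on chow or high fat, has 3 libraries, A, B and C. Because the protocol mentions 2 independent replicates, p-values here measure a spread between libraries that may not all be independent.

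These carriers set what a vessel wall takes up and passes on. Slc2 members move glucose down its gradient and Slc5 members couple sugars or other solutes to sodium. Slc7 light chains exchange amino acids and mostly reach the membrane bound to the heavy chain Slc3a2 (CD98), and Slc1, Slc36, Slc38 and Slc43 members carry further amino acids or, for Slc43a3, purine nucleobases. Slc16 members include lactate and pyruvate carriers, some of which need the chaperone basigin. Endothelial cells rely on glycolysis, release lactate and control amino acid supply to the tissue, while Slc2a4 is the insulin-responsive glucose transporter of fat cells and muscle.

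The reads assigned to listed genes ranged from 8348897 to 25397963 per library. The summed normalized count of 10 endothelial markers (Cdh5, Pecam1 and others), all detected in all 12 libraries, was 109678 to 159052 in mesentery on chow, 104574 to 123606 in mesentery on high fat, 80217 to 97226 in epididymal fat on chow and 44116 to 85092 in epididymal fat on high fat. Markers of other cells were also present. The summed adipocyte markers were 64783 to 88212 in epididymal fat on chow, 4542 to 15299 in epididymal fat on high fat, and 4937 to 7183 and 5274 to 10557 in mesentery on chow and high fat. The summed macrophage markers were 1437 to 7261 and 4439 to 22536 in mesentery on chow and high fat, and 5636 to 82615 and 132631 to 332070.4 in epididymal fat. Pancreatic acinar markers were 29280.5 to 194225 and 60548 to 115777 in mesentery against 186 to 284 and 414 to 559.9 in epididymal fat. The summed fibroblast markers were 7161 to 10787 and 5073 to 10862 in mesentery on chow and high fat and 19816 to 59656 and 52615 to 68658 in epididymal fat, those of smooth muscle and pericytes 1449.8 to 1739.9 and 1958 to 4403 in mesentery on chow and high fat and 16187 to 25411 and 6745 to 13051 in epididymal fat, and those of red blood cells 326 to 432 and 177 to 362 in mesentery on chow and high fat and 35100.2 to 44022 and 31946 to 36413 in epididymal fat. By the test used below, higher in epididymal fat on chow were 9 of 10 adipocyte, 4 of 10 macrophage, 8 of 10 fibroblast, 8 of 10 smooth muscle and pericyte and 4 of 4 tested red blood cell markers, and on high fat 0, 8, 10, 4 and 4 in the same order. Of the 10 endothelial markers, 5 were lower in epididymal fat on chow and 6 on high fat, and 1 was higher on each diet. On high fat 1 adipocyte marker was lower in epididymal fat. Of these lists, Pck1 and Adrb3 (adipocyte) and Adgre1 (macrophage) were at 0 in at least 1 library. Mitochondrial genes took 5.67 to 20.6% of the reads in mesentery on chow, 5.96 to 10.1% in mesentery on high fat, 2.50 to 3.73% in epididymal fat on chow and 3.07 to 5.94% in epididymal fat on high fat, so this share moved with the tissue, and its part in the tissue differences was not tested. A set of 663 olfactory and vomeronasal receptor genes took 1941 and 2082 CPM (counts scaled to the library total) in the epididymal libraries that the labels number 87 (replicate C on chow) and 88 (replicate A on high fat), against 99.7 to 186 in the other epididymal libraries. On chow the mesentery values were 945, 253 and 3065 and on high fat 592, 573 and 1918 (A, B and C), so replicate C stood apart on both diets, numbered 87 on chow and 53 on high fat.

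Per kilobase of exon, the scale on which levels of different genes can be compared, 2 members had the highest means in each of the 4 groups. Slc43a3, which carries purine nucleobases, had a mean of 3291 ± 713 normalized counts per kb in mesentery on chow (SD, n = 3) and 1310.2 ± 276 in epididymal fat on chow. Slc3a2, the heavy chain, had 1754 ± 119 and 1402 ± 359.7 in the same groups. In epididymal fat on chow these levels of Slc43a3 and Slc3a2 lay within their spread of each other. In single libraries Slc43a3 alone made up 41.9 to 55.2% of the summed level per kb of the 71 members in mesentery on chow and 19.5 to 26.0% in epididymal fat on chow. The next members by mean over the 12 libraries were the glutamine and neutral amino acid exchanger Slc1a5 with 285 normalized counts per kb, the sodium-coupled glutamine carrier Slc38a5 with 280.4, its relative Slc38a2 with 157 and the glucose transporter Slc2a1 with 123. The place of Slc38a5 rests on epididymal fat on chow, where its mean was 1051 ± 1180.0, against 6.76 ± 3.41 in mesentery on chow.

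Within the Slc1, Slc2, Slc3, Slc5, Slc7, Slc36, Slc38 and Slc43 families, the member with the most normalized counts was Slc1a5, Slc2a1, Slc3a2, Slc5a3, Slc7a7, Slc36a4, Slc38a2 and Slc43a3 in turn. Values listed for a group are the normalized counts of its libraries A, B and C, in that order. Slc5a3, a sodium-coupled myo-inositol carrier, had 91.1, 60.0 and 339 in mesentery on chow, 122, 125 and 148 in mesentery on high fat, 46.2, 55.6 and 202 in epididymal fat on chow, and 239, 71.0 and 60.9 in epididymal fat on high fat. Slc7a7, a light chain for cationic and neutral amino acids, had 191, 196 and 382 in mesentery on chow, 185, 266 and 313 in mesentery on high fat, 334, 246 and 269 in epididymal fat on chow, and 371, 372 and 380.1 in epididymal fat on high fat. Single libraries of Slc5a3 were high, replicate C on chow in both tissues and replicate A on high fat in epididymal fat, whereas the 3 epididymal libraries of Slc7a7 on high fat were close together. Slc36a4, an amino acid carrier, had 235, 304 and 151 in mesentery on chow, 255, 132 and 184 in mesentery on high fat, 169, 227 and 134 in epididymal fat on chow, and 179.9, 202 and 185 in epididymal fat on high fat. None of Slc5a3, Slc7a7 and Slc36a4 passed in a tissue or diet comparison by limma (described below), with adjusted p between 0.269 and 1.00. The plot of levels by library shows the members on which the comparisons below turn.

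**Figure D1:**
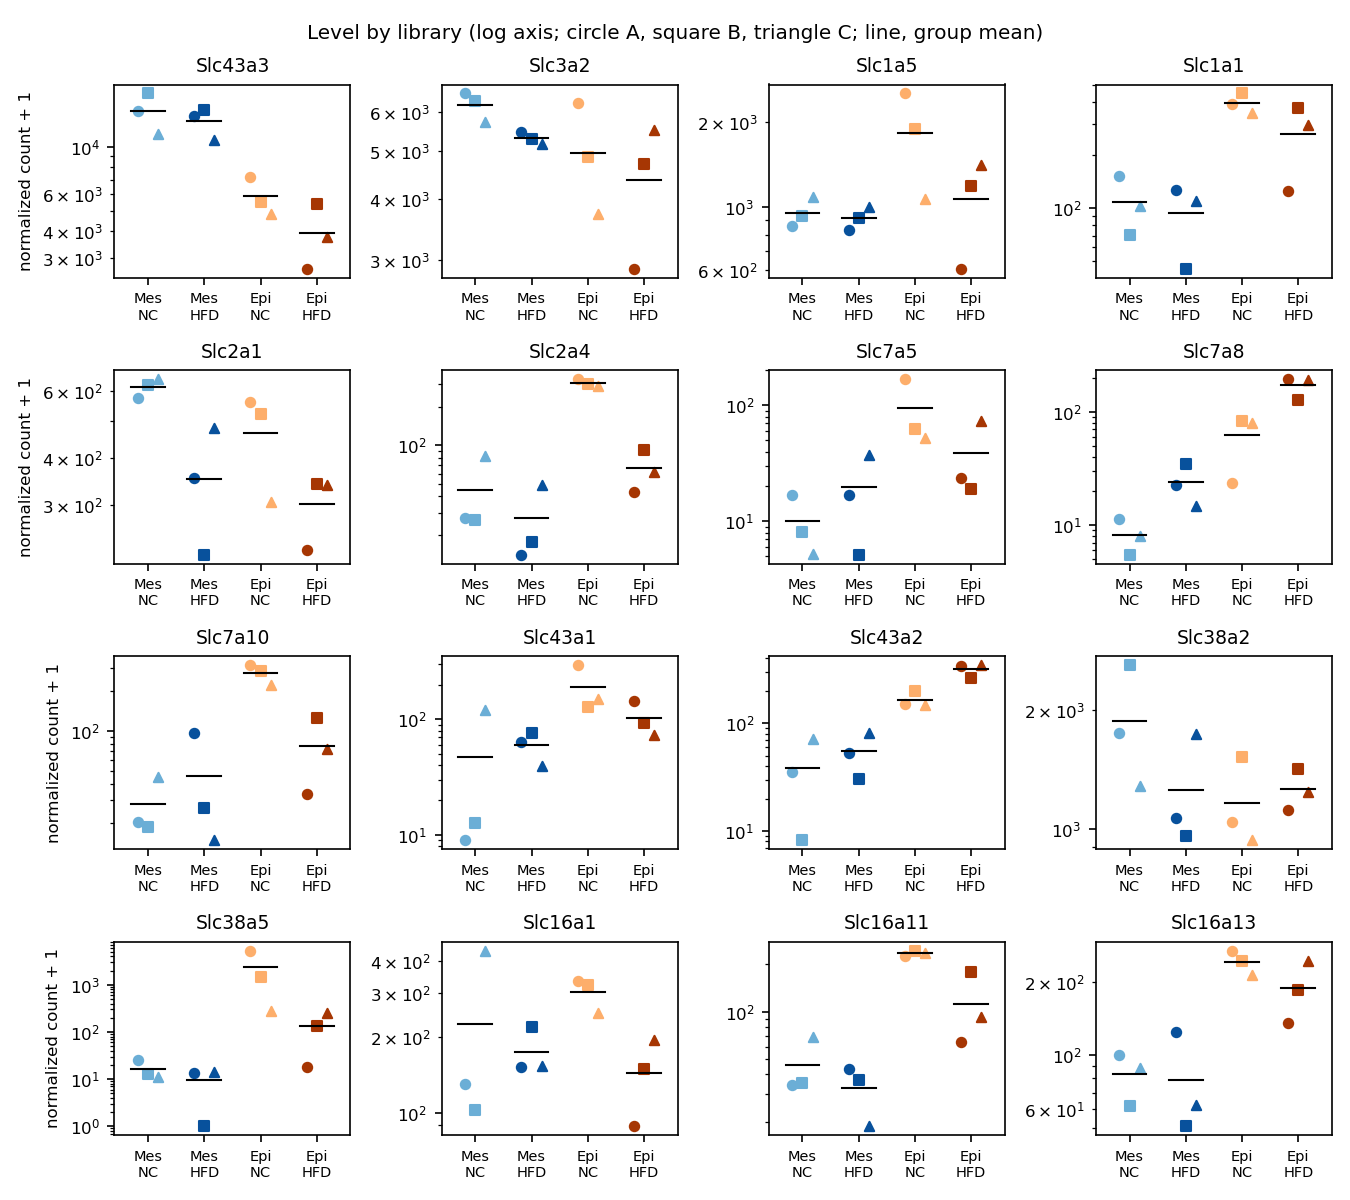
Normalized count plus 1 (log axis, scale set per gene) of 16 transporters in each library, by tissue (Mes, mesentery; Epi, epididymal fat) and diet, with the group mean as a line. Slc43a3 was lower in all 6 epididymal libraries than in any mesentery library, and Slc38a5 was between 271 and 5330.3 normalized counts in epididymal fat on chow and at most 23.9 in mesentery.

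On chow, 10 transporters were higher in the epididymal than in the mesentery libraries and 1, Slc43a3, was lower. That is 18.6% of the 59 tested members, beside 12.8% of all 22238 genes tested (7.32% higher and 5.47% lower). The test was limma on log2(normalized count + 1), with Benjamini-Hochberg adjustment over all genes and a threshold of 0.05. The adjusted p-values below are from it, and changes on this scale understate those of low genes. The median log2 change, epididymal minus mesentery, was 0.35 over the members and -0.08 over all genes. An unadjusted p under 0.05 was reached by 20 members (33.9%, beside 25.4% of all genes). In bulk samples, fewer cells of a type and less RNA per cell cannot be told apart.

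Among the amino acid carriers, Slc38a5 (ENSMUSG00000031170) differed most. It had 23.9, 11.6 and 9.86 in mesentery on chow and 5330.3, 1467 and 271 in epididymal fat on chow (log2 change 6.42 ± 1.24 (SE), adjusted p = 0.00419). All 3 epididymal libraries exceeded the mesentery ones, but they spread widely among themselves. Without epididymal replicate A the log2 change was 5.39, and without replicate C 7.54, both past the threshold. Slc7a10 (ENSMUSG00000030495), a light chain for small neutral amino acids such as serine and glycine that is known as a surface protein of fat cells, had 19.4, 17.9 and 43.6 in mesentery on chow and 316, 283 and 221 in epididymal fat on chow (log2 change 3.39 ± 0.68 (SE), adjusted p = 0.00520). The lowest epididymal library stood well above the highest mesentery one. Per 1000 of the adipocyte sum, Slc7a10 stood at 3.49 to 6.08 in mesentery and 3.21 to 4.14 in epididymal fat on chow. Per 1000 of the red blood cell sum, Slc38a5 stood at 22.8 to 73.4 in mesentery and 7.71 to 129.9 in epididymal fat on chow, which overlap. Per 1000 of the smooth muscle and pericyte sum it stood at 5.99 to 13.7 and 16.7 to 209.8, and per 1000 of the adipocyte sum at 1.37 to 4.31 and 4.18 to 69.9, where the 3 epididymal smooth muscle ratios lay above the mesentery ones and the adipocyte ratios overlapped. The part of RNA from these cells in the 2 differences was not tested.

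3 carriers of large neutral amino acids were also higher in epididymal fat on chow. Slc43a1 (ENSMUSG00000027075) had 7.97, 11.6 and 119.7 in mesentery on chow and 296, 128 and 150.1 in epididymal fat on chow (log2 change 2.91 ± 0.78 (SE), adjusted p = 0.0270). Mesentery replicate C, numbered 87, stood near the lowest epididymal library, and without it the change was 4.07. Without mesentery replicate A it was 2.20 and no longer passed. Its relative Slc43a2 (ENSMUSG00000038178) had 34.2, 7.17 and 70.4 in mesentery on chow and 149, 196 and 146 in epididymal fat on chow (log2 change 2.58 ± 0.63 (SE), adjusted p = 0.0168), with no overlap. Without mesentery replicate B this change was 1.70, and without replicate C 3.27. Slc7a5 (ENSMUSG00000040010), the main light chain for leucine uptake in many cells, had 15.9, 7.17 and 4.22 in mesentery on chow and 168, 61.7 and 51.1 in epididymal fat on chow (log2 change 3.19 ± 0.90 (SE), adjusted p = 0.0324). Its levels were low, and epididymal replicate A was well above B and C.

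Slc7a8 (ENSMUSG00000022180), another light chain for neutral amino acids, had 10.2, 4.48 and 7.04 in mesentery on chow and 22.7, 82.5 and 78.6 in epididymal fat on chow (log2 change 2.77 ± 0.64 (SE), adjusted p = 0.0118). Its mean in epididymal fat on chow was below 100, so it is named after its value was seen. Without epididymal replicate A, the lowest of the 3, the change was 3.37. Slc1a1 (ENSMUSG00000024935), a glutamate and cysteine carrier, had 150.3, 69.9 and 101 in mesentery on chow and 390.0, 446 and 345 in epididymal fat on chow (log2 change 1.93 ± 0.46 (SE), adjusted p = 0.0148). For both Slc7a8 and Slc1a1, every epididymal library was above every mesentery library.

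Among the sugar carriers, only the fat and muscle transporter Slc2a4 (ENSMUSG00000018566) passed. It had 26.2, 25.1 and 81.7 in mesentery on chow and 327, 299.7 and 290.0 in epididymal fat on chow (log2 change 2.98 ± 0.58 (SE), adjusted p = 0.00426). The 3 epididymal values were close together and all above mesentery replicate C, the highest there. Per 1000 of the adipocyte sum it stood at 4.72 to 11.4 in mesentery and 3.40 to 4.48 in epididymal fat. The median log2 change of the 10 adipocyte markers was 3.62. The part of adipocyte RNA in the Slc2a4 difference was not tested. The widespread Slc2a1 did not pass, at 574, 623 and 646 in mesentery on chow and 563, 523 and 304 in epididymal fat on chow (log2 change -0.45 ± 0.30 (SE), adjusted p = 0.398). Its relative Slc2a3, also a high-affinity glucose transporter, had 96.8, 99.5 and 177 in mesentery on chow and 106, 79.1 and 87.8 in epididymal fat on chow (log2 change -0.40 ± 0.54 (SE), adjusted p = 0.707).

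Among the Slc16 genes, Slc16a11 and Slc16a13 passed. Slc16a11 (ENSMUSG00000040938), a pyruvate carrier gene linked to diabetes in human genetics, had 33.0, 34.0 and 67.6 in mesentery on chow and 223, 242 and 233 in epididymal fat on chow (log2 change 2.43 ± 0.48 (SE), adjusted p = 0.00477). Slc16a13 (ENSMUSG00000044367) had 99.1, 60.9 and 87.3 in mesentery on chow and 268, 242 and 211 in epididymal fat on chow (log2 change 1.55 ± 0.37 (SE), adjusted p = 0.0145). No epididymal library of either gene overlapped the mesentery ones. These genes are adjacent on chromosome 11 of the RefSeq annotation of assembly GRCm38.p6, with 0 annotated genes between them, and whether the counting used strand is not given in the sources used here. The lactate carriers Slc16a1 and Slc16a3 did not pass: Slc16a1 had 129.8, 102 and 439 in mesentery on chow and 334, 319.7 and 247 in epididymal fat on chow (log2 change 0.72 ± 0.46 (SE), adjusted p = 0.379) and Slc16a3 had 69.5, 44.8 and 15.5 in mesentery on chow and 50.1, 83.4 and 18.4 in epididymal fat on chow (log2 change 0.22 ± 0.69 (SE), adjusted p = 0.886).

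Slc43a3 (ENSMUSG00000027074) moved the other way. It had 14778, 17829 and 11465 in mesentery on chow and 7225, 5479 and 4842 in epididymal fat on chow (log2 change -1.33 ± 0.28 (SE), adjusted p = 0.00656), so each mesentery library was above each epididymal one. In GRCm38.p6 it lies on chromosome 2 with 1 annotated gene, Rtn4rl2, between it and Slc43a1, which was higher in epididymal fat. Per 1000 normalized counts of the summed endothelial markers, Slc43a3 stood at 98.1 to 112 in mesentery on chow and 56.4 to 84.1 in epididymal fat on chow. The ratio ranges did not overlap either. This sum is weighted to its most abundant markers, and the median log2 change of the 10 endothelial markers was -0.92. The part of the endothelial share of RNA in the Slc43a3 difference was not tested.

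By edgeR 9 members passed on chow (beside 8.92% of all genes) and by DESeq2 14 (beside 17.9%). The number of calls on chow depended on single libraries. Without epididymal replicate B, 5 members passed, without epididymal replicate A 6, and without mesentery replicate B 7. The calls of Slc43a3, Slc16a11, Slc2a4, Slc38a5 and Slc7a10 passed in each of the 24 alternatives tried. Those of Slc1a1, Slc16a13, Slc43a1, Slc43a2 and Slc7a5 were lost without epididymal replicate A and without B, and that of Slc7a8 without B. Without mesentery replicate B, Slc1a1, Slc16a13, Slc43a1 and Slc7a5 were lost, and Slc7a5 was also lost without mesentery replicate C. With the libraries numbered 50 to 53 only, 15 members passed, beside 19.6% of all genes.

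On the high fat diet, 6 transporters were higher in epididymal fat and Slc43a3 was again lower. These 7 are 11.9% of the 59 tested members, beside 8.34% of all genes tested (4.91% higher and 3.43% lower). The median log2 change was 0.45 over the members and 0.06 over all genes. An unadjusted p under 0.05 was reached by 14 (23.7%, beside 21.0% of all genes). Slc43a3, Slc43a2, Slc7a8, Slc16a11 and Slc16a13 passed on both diets, 6 members passed on chow alone, and Slc16a6 and Slc16a12 on high fat alone. Among the 6, Slc38a5 had 12.2, 0 and 12.8 in mesentery on high fat and 16.9, 135 and 249.8 in epididymal fat on high fat. Some alternatives did call Slc38a5 on high fat, DESeq2 among them. Passing on 1 diet alone does not show that the tissue difference changed with the diet, which is the interaction tested below. Of the 13 members that passed on either diet, 12 had higher means of log2 values in epididymal fat on both diets.

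Slc43a3 had 13917, 14938 and 10764 in mesentery on high fat and 2659.9, 5355 and 3771 in epididymal fat on high fat (log2 change -1.79 ± 0.28 (SE), adjusted p = 0.00142), again without overlap. Per 1000 summed endothelial marker counts it stood at 103 to 125 in mesentery and 60.3 to 62.9 in epididymal fat. The median log2 change of the 10 markers was -1.04 on this diet, and the part of the endothelial share of RNA was not tested. The epididymal ratios on high fat were within the range of those on chow, whereas the Slc43a3 counts themselves reached lower in 2 of the 3 libraries.

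Slc7a8 had 21.5, 33.3 and 13.8 in mesentery on high fat and 193, 126 and 190.4 in epididymal fat on high fat (log2 change 2.89 ± 0.64 (SE), adjusted p = 0.0138). Slc43a2 had 52.4, 29.1 and 80.0 in mesentery on high fat and 339.5, 260.1 and 347 in epididymal fat on high fat (log2 change 2.63 ± 0.63 (SE), adjusted p = 0.0221). Both were higher in all 3 epididymal libraries than in any mesentery library. The macrophage marker sum was also higher in epididymal fat on high fat than in any other group. Per 1000 of that sum, Slc7a8 stood at 0.614 to 7.49 in mesentery and 0.573 to 1.05 in epididymal fat, and Slc43a2 at 3.07 to 6.56 and 1.04 to 1.96. The part of macrophage RNA in these differences was not tested.

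The other 4 that passed on high fat were Slc16 genes. Slc16a11 had 42.1, 36 and 17.8 in mesentery on high fat and 63.0, 176 and 91.3 in epididymal fat on high fat (log2 change 1.71 ± 0.48 (SE), adjusted p = 0.0436). Slc16a13 had 123, 49.9 and 61.3 in mesentery on high fat and 135, 184 and 241 in epididymal fat on high fat (log2 change 1.32 ± 0.37 (SE), adjusted p = 0.0443). The lowest epididymal library of each, replicate A, was only a little above the highest mesentery one. Slc16a6 (ENSMUSG00000041920), linked to export of ketone bodies, had 22.4, 18.0 and 72.1 in mesentery on high fat and 103, 188 and 133 in epididymal fat on high fat (log2 change 2.11 ± 0.48 (SE), adjusted p = 0.0168). Without mesentery replicate C, its highest mesentery library, the change was 2.71. Slc16a12 (ENSMUSG00000009378), a creatine carrier, had 1.87, 0 and 0 in mesentery on high fat and 43.8, 37.2 and 29.0 in epididymal fat on high fat and an adjusted p of 0.0195. Its mean in epididymal fat was below 100, so it too is named after its value was seen. The mesentery libraries held 2 reads of it in all and the epididymal ones 125, a ratio per scaled library of 49.9 with an exact 95% interval of 13.5 to 416 that covers counting error only.

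Of the calls on high fat, that of Slc43a3 passed in each of the 24 alternatives. Without epididymal replicate C it was the 1 member left, and without epididymal replicate B, or without mesentery replicate B, Slc43a3 and Slc7a8 were left. Without mesentery replicate A, 4 passed: Slc16a12, Slc16a13, Slc43a3 and Slc7a8. Leaving out epididymal replicate A ended the calls of Slc43a2 and Slc16a12, and leaving out mesentery replicate C those of Slc16a11 and Slc16a13. The latter 2 calls were also lost without single chow libraries, which enter through the shared estimate of the spread. edgeR on the recovered reads called 3 members, Slc43a2, Slc43a3 and Slc7a8, but not Slc16a11 (adjusted p = 0.0624) or Slc16a13 (0.0968), beside 4.59% of all genes, and the libraries numbered 50 to 53 gave 12, beside 11.3%.

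**Figure D2:**
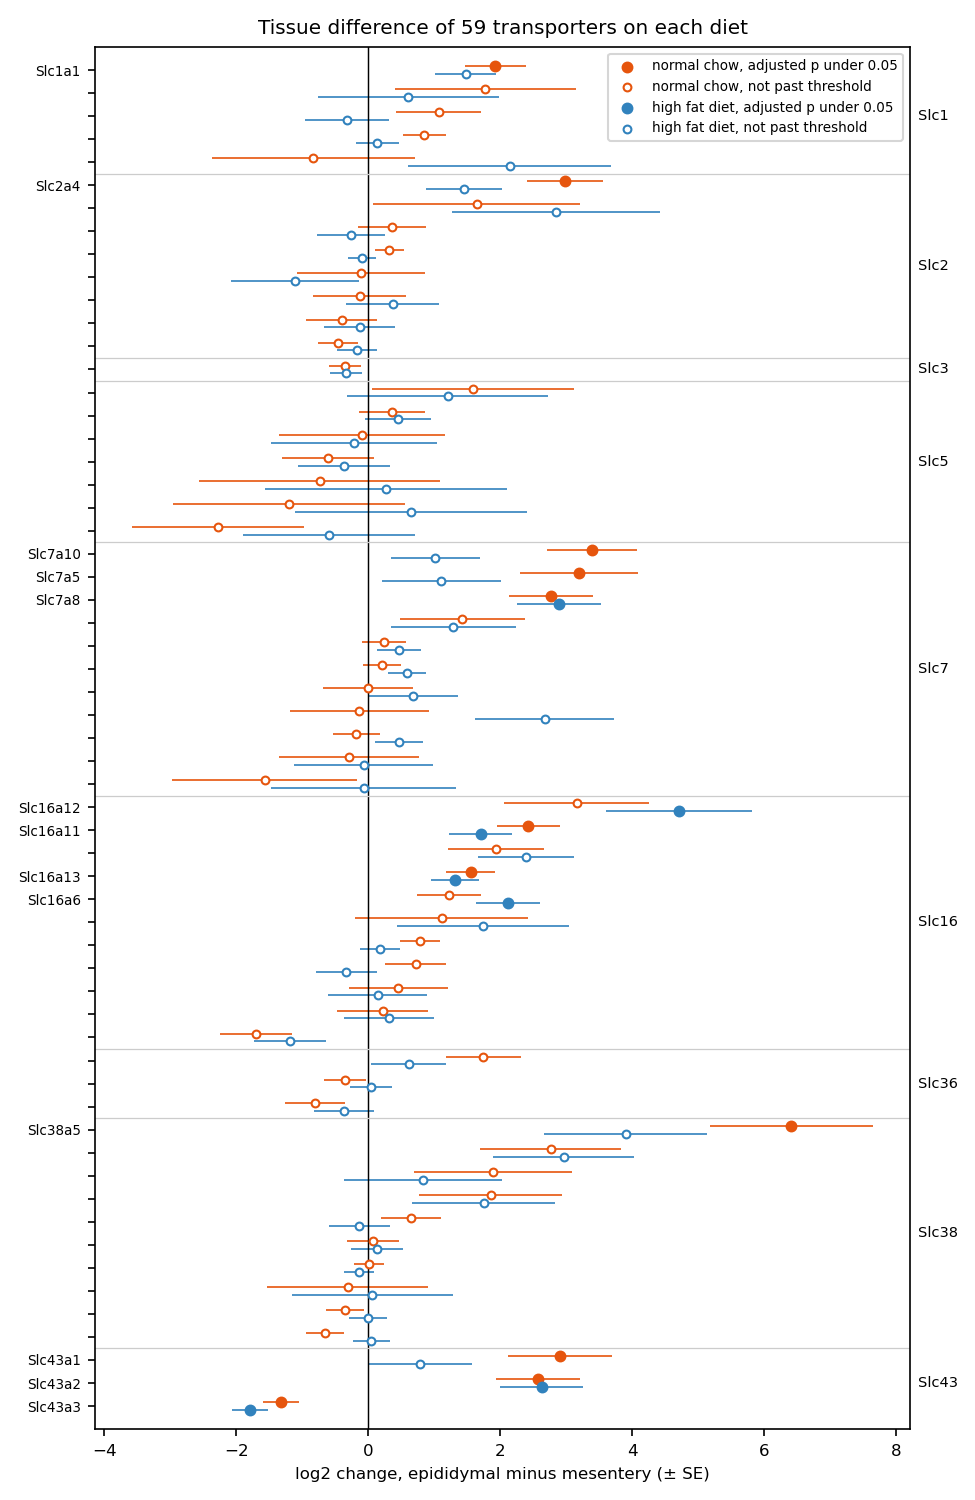
Log2 change (epididymal minus mesentery, ± SE) of the 59 tested transporters for each diet, by family and, within a family, by the change on chow, with the names of those that passed on either diet. Filled points have an adjusted p under 0.05: 11 on chow and 7 on high fat, and only Slc43a3 among them lies below 0.

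Promoters are shown for 3 of these members because their levels differed between tissues and because they hold the same short palindrome. RefSeq promoter sequences (assembly GRCm38.p6, not the mm39 build that the submitters list) were at hand for 52 of the 71 members and for 8 of the 13 that passed on either diet. The 250 bases before each start were searched on both strands for CACGTG, the E-box that basic helix-loop-helix factors such as the MYC and TFE3 families bind. It was found in 8 of the 63 promoters of these 52 members (12.7%), 1 for each of 8 members, and in 6.02% of all 32851 promoters. Of the 8 members with a promoter that passed, Slc38a5, Slc43a1 and Slc16a12 hold it. The motif and these promoters were chosen after the values were seen, and a match is a description of the sequence, not of binding. The windows are chrX:8271131-8271380 on the plus strand for Slc38a5, chr2:84840073-84840322 on the plus strand for Slc43a1 and chr19:34747329-34747578 on the minus strand for Slc16a12, each written 5′ to 3′ with CACGTG in capitals.
Slc38a5: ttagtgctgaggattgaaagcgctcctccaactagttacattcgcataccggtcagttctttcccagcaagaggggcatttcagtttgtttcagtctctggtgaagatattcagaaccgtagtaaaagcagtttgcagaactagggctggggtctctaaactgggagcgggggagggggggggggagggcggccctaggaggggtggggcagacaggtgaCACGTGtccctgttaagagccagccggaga
Slc43a1: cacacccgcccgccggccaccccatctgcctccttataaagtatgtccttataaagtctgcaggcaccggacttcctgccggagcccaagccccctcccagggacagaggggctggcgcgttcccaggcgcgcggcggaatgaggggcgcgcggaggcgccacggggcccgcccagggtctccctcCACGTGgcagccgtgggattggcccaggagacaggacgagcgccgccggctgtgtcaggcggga
Slc16a12: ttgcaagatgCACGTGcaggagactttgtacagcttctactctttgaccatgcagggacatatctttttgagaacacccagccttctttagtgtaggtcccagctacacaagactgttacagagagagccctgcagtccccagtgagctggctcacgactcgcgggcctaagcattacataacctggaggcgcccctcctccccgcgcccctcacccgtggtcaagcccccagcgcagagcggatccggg
The match begins 30 bases before the start of Slc38a5, 64 before that of Slc43a1 and 240 before that of Slc16a12. The amino acid response element TGATGNAA was present in 3 member promoters (4.76%), of Slc7a11 and Slc7a7, and in 3.45% of all promoters. The ETS core CCGGAA, read on both strands, was present in 8 promoters (12.7%) of 7 members, Slc3a2 and Slc43a2 among them. It was present in 12.0% of all promoters. For both motifs the member share is near that of all promoters. None of these 3 motifs contains another, and no match says only that the letters are not in this window.

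The heavy chain Slc3a2 did not differ between tissues by the test, while several of its light chains did. Slc3a2 had 6539, 6308 and 5723 in mesentery on chow, 5466, 5283 and 5151 in mesentery on high fat, 6259.9, 4861 and 3725 in epididymal fat on chow, and 2877, 4698 and 5509 in epididymal fat on high fat, with log2 changes of -0.35 on chow (adjusted p = 0.420) and -0.33 on high fat (adjusted p = 0.529). Per 1000 summed endothelial marker counts it stood at 39.7 to 52.2 in mesentery and 46.4 to 72.8 in epididymal fat on chow, which overlap, and at 42.7 to 49.3 and 55.2 to 91.8 on high fat, where the epididymal ratios lay above the mesentery ones although the log2 change of the counts was negative. Per kb, Slc3a2 exceeded the sum of its 6 light chains Slc7a5, Slc7a6, Slc7a7, Slc7a8, Slc7a10 and Slc7a11 in every library. The ratio was 8.58 to 18.5 in mesentery on chow and 8.74 to 12.2 on high fat, against 4.05 to 5.18 and 3.67 to 5.81 in epididymal fat. The tissues did not overlap on either diet, and with 3 libraries against 3 an exact permutation test cannot go below a two-sided p of 0.1.

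The makeup of the light chains differed as well. In epididymal fat on chow, Slc7a10 made up 40.0 to 48.7% of the summed light chains per kb, against 8.25 to 10.9% in mesentery on chow and 6.95 to 24.7% in epididymal fat on high fat. Slc7a7 made up 57.5 to 60.9% in mesentery on chow and 26.9 to 31.1% in epididymal fat on chow. Slc7a8 reached 10.6 to 17.4% in epididymal fat on high fat, against 1.32 to 6.02% there on chow. Slc7a11, the cystine-glutamate exchanger, was at or below 6.20% in each library. It had 54.7, 33.2 and 135 in mesentery on chow, 56.1, 20.8 and 144 in mesentery on high fat, 51.7, 48.7 and 98.0 in epididymal fat on chow, and 136, 68.5 and 76.4 in epididymal fat on high fat (adjusted p = 1.00 for tissue on chow and 0.694 on high fat). A library's shares sum to 100%, so a higher share of 1 chain lowers the others. The part of RNA from adipocytes, macrophages and other cells in these shares and in the ratio of Slc3a2 above was not tested.

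**Figure D3:**
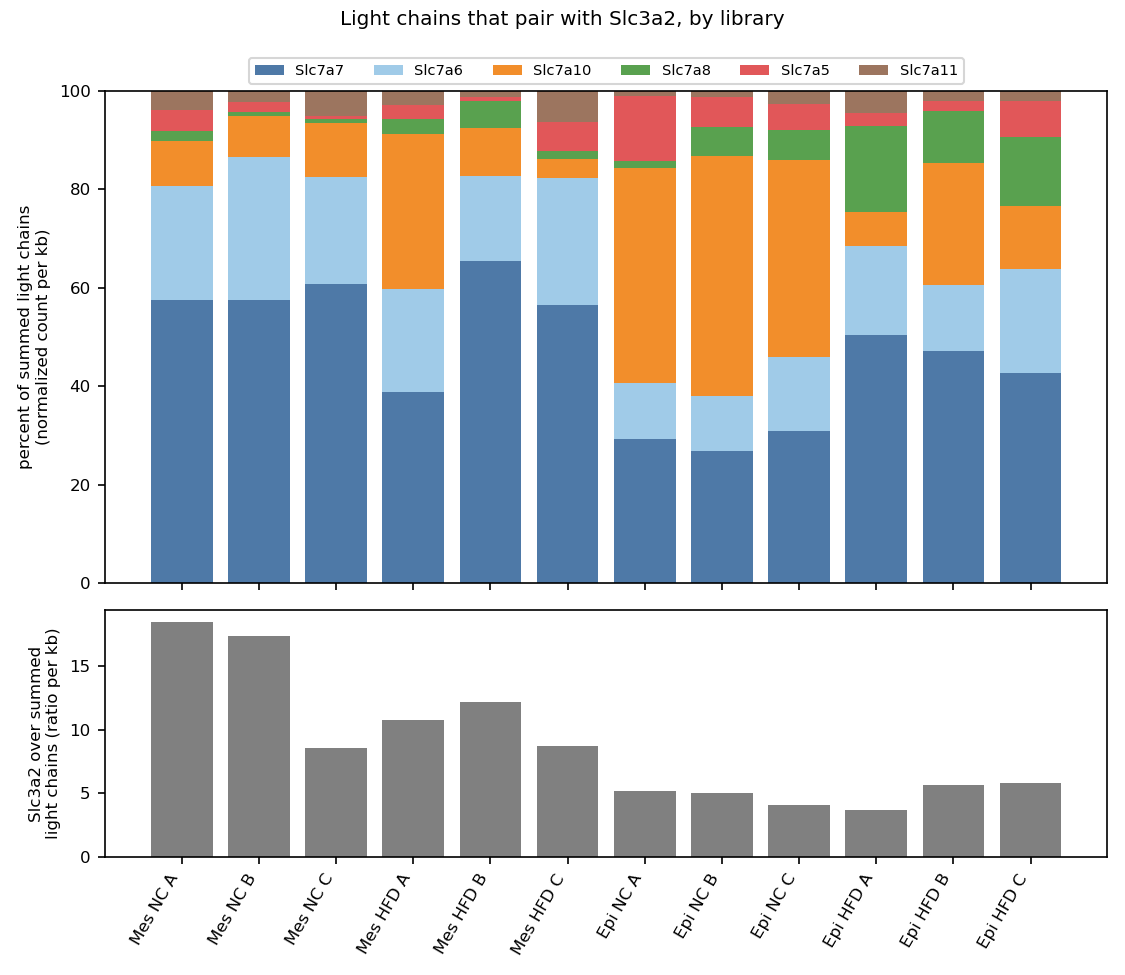
Share of each light chain in the summed level per kb of 6 Slc3a2 partners (top, percent) and the ratio of Slc3a2 to that sum (bottom), by library. Slc7a10 takes 40.0 to 48.7% in epididymal fat on chow, and the ratio is 3.67 to 5.81 over all 6 libraries of epididymal fat against at least 8.58 in mesentery.

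The comparison of diets in epididymal fat shares the epididymal chow libraries with that of tissues on chow, and the high fat libraries with that of tissues on high fat. In epididymal fat, 0 of the 59 transporters passed the test between high fat and chow, beside 0.549% of all genes. 9 members had an unadjusted p under 0.05 (15.3%, beside 6.94% of all genes). The libraries did not overlap for 10 members with lower values on high fat (16.9%, beside 6.57% of all genes) and for 4 with higher values (6.78%, beside 6.93%). edgeR called 0 members (beside 0.13% of all genes) and DESeq2 2, Slc2a4 and Slc38a5 (beside 2.56% of all genes). A fit on the epididymal libraries alone called 1, Slc2a4 (beside 0.778%). The median log2 change was 0.13 over the members and 0.10 over all genes.

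Slc2a4 had 327, 299.7 and 290.0 in epididymal fat on chow and 42.7, 91.7 and 60.9 in epididymal fat on high fat (log2 change -2.28 ± 0.58 (SE), adjusted p = 0.140). Slc7a10 had 316, 283 and 221 in epididymal fat on chow and 32.6, 124 and 72.2 in epididymal fat on high fat (log2 change -2.01 ± 0.68 (SE), adjusted p = 0.341). For both genes each chow library was above each high fat library. The adipocyte marker sum was lower on high fat in the same way. Per 1000 of that sum, Slc2a4 stood at 3.40 to 4.48 on chow and 5.99 to 9.41 on high fat, and Slc7a10 at 3.21 to 4.14 and 7.18 to 9.66. Relative to this sum both genes were therefore not lower on high fat but had larger ratios. The sum is weighted to its most abundant markers, and the median log2 change of the 10 adipocyte markers was -1.70, with 3 called lower. Both genes fell by more than that median, so the reading depends on how the markers are weighted. In mesentery, where the adipocyte sum was near that of epididymal fat on high fat, Slc2a4 stood at 4.72 to 11.4 on chow and 1.24 to 9.18 on high fat, both of which overlap the range of epididymal fat on high fat. Slc7a10 stood at 3.49 to 6.08 there on chow, below its range in epididymal fat on high fat, and at 2.62 to 9.04 on high fat, which overlaps it. The part of adipocyte RNA in the levels of these genes was not tested.

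Slc38a5 had 5330.3, 1467 and 271 in epididymal fat on chow and 16.9, 135 and 249.8 in epididymal fat on high fat (log2 change -3.92 ± 1.24 (SE), adjusted p = 0.272). The lowest chow library, C, was close to the highest high fat library, C. Without epididymal chow replicate A the log2 change was -2.90, without chow replicate C -5.04, without high fat replicate A -2.80 and without high fat replicate C -4.70, none past the threshold. Per 1000 of the adipocyte sum, Slc38a5 ranged from 4.18 to 69.9 on chow and from 3.71 to 33.4 on high fat, which overlap. Per 1000 of the smooth muscle and pericyte sum the ranges were 16.7 to 209.8 and 2.50 to 24.5, and per 1000 of the red blood cell sum 7.71 to 129.9 and 0.50 to 7.82. The part of RNA from these cells in the diet difference was not tested.

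Slc16a11 had 223, 242 and 233 in epididymal fat on chow and 63.0, 176 and 91.3 in epididymal fat on high fat (log2 change -1.20 ± 0.48 (SE), adjusted p = 0.528), and Slc16a1 had 334, 319.7 and 247 in epididymal fat on chow and 87.7, 149 and 193 in epididymal fat on high fat (log2 change -1.12 ± 0.46 (SE), adjusted p = 0.575). Both were lower in each high fat library without passing the adjusted threshold. Among the 4 members with higher values in each high fat library were Slc7a8, with 22.7, 82.5 and 78.6 in epididymal fat on chow and 193, 126 and 190.4 in epididymal fat on high fat (log2 change 1.63 ± 0.64 (SE), adjusted p = 0.501), and Slc43a2, with 149, 196 and 146 in epididymal fat on chow and 339.5, 260.1 and 347 in epididymal fat on high fat (log2 change 0.94 ± 0.63 (SE), adjusted p = 1.00). The macrophage sum was higher on high fat in all 3 libraries too. Per 1000 of it, Slc43a2 stood at 2.38 to 25.9 on chow and 1.04 to 1.96 on high fat, so the ratio was not higher on high fat. The plot of transporters beside marker sums gives these values by library.

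**Figure D4:**
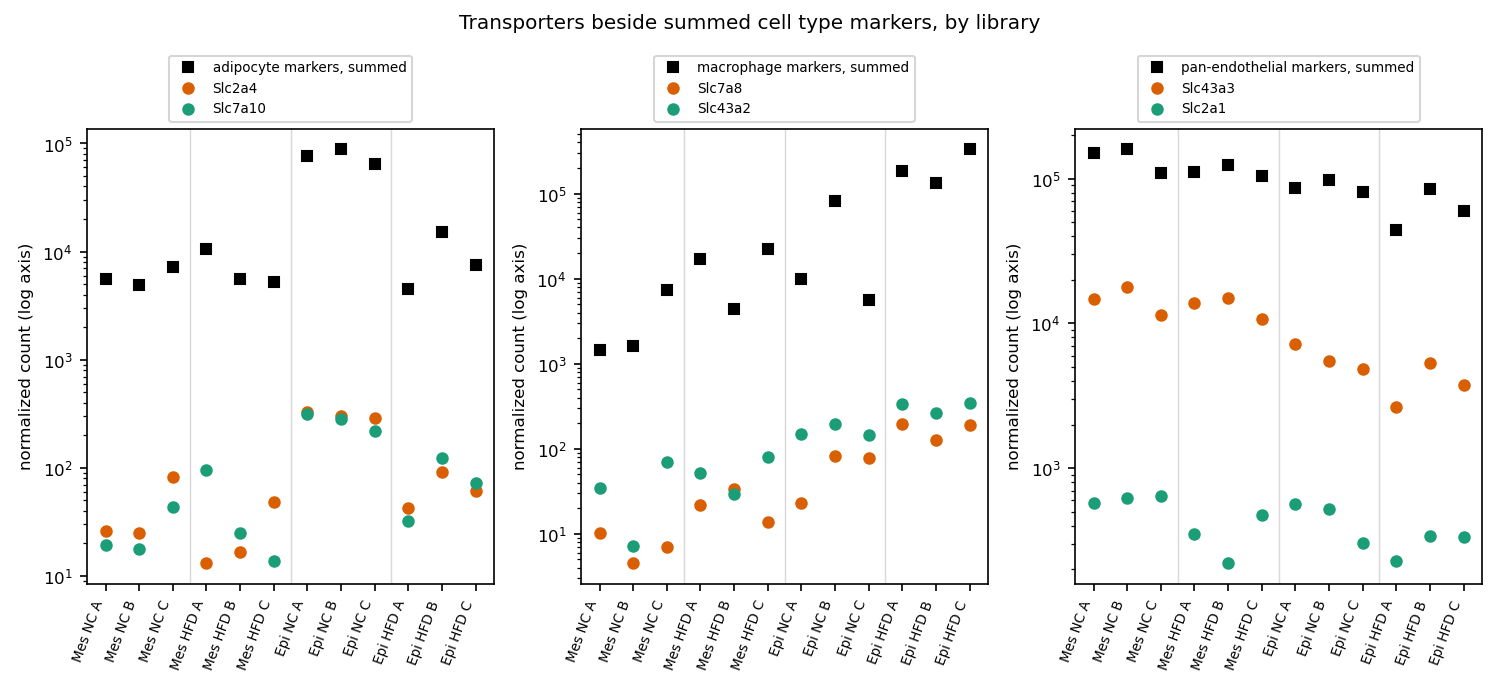
Normalized count (log axis) of 6 transporters and the summed markers of adipocytes, macrophages and endothelial cells in each library. In epididymal fat, Slc2a4 and Slc7a10 are lower on high fat beside an adipocyte sum of 64783 to 88212 on chow and 4542 to 15299 on high fat, and Slc7a8 and Slc43a2 are higher beside a macrophage sum of 132631 to 332070.4.

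The endothelial nutrient carriers Slc1a5, Slc2a1, Slc38a2 and Slc3a2 were not called between diets in epididymal fat. Slc1a5 had 2519, 1885 and 1064 in epididymal fat on chow and 604, 1190.0 and 1409.9 in epididymal fat on high fat (log2 change -0.77 ± 0.32 (SE), adjusted p = 0.595), and Slc2a1 had 563, 523 and 304 in epididymal fat on chow and 227, 339 and 337 in epididymal fat on high fat (log2 change -0.59 ± 0.30 (SE), adjusted p = 0.815). The groups overlapped for both. Slc38a2, a stress-responsive carrier of small neutral amino acids, had 1041, 1518 and 934 in epididymal fat on chow and 1116, 1419 and 1239 in epididymal fat on high fat (log2 change 0.14 ± 0.29 (SE), adjusted p = 1.00). Slc7a1, the main cationic amino acid carrier and source of arginine for nitric oxide synthesis, had 83.0, 146 and 187 in epididymal fat on chow and 287, 139 and 154 in epididymal fat on high fat (log2 change 0.47 ± 0.36 (SE), adjusted p = 1.00).

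In mesentery, 0 of the 59 transporters passed between high fat and chow by limma, edgeR or DESeq2, beside 0.0135% of all genes by limma, 0.0045% by edgeR and 0.683% by DESeq2. 5 members had an unadjusted p under 0.05 (8.47%, beside 6.15% of all genes). The median log2 change was -0.02 over the members and -0.00227 over all genes. The libraries did not overlap for 4 members: Slc2a1 and Slc3a2 had lower values on high fat (5.14% of all genes) and Slc7a8 and Slc7a14 higher (4.47% of all genes).

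Slc2a1 had 574, 623 and 646 in mesentery on chow and 352, 220.4 and 479 in mesentery on high fat (log2 change -0.88 ± 0.30 (SE), adjusted p = 0.655), the lowest adjusted p of a member in this comparison. Per 1000 summed endothelial marker counts it stood at 3.81 to 5.89 on chow and 1.78 to 4.58 on high fat, which overlap. Slc3a2 had 6539, 6308 and 5723 in mesentery on chow and 5466, 5283 and 5151 in mesentery on high fat (log2 change -0.22 ± 0.25 (SE), adjusted p = 0.959). Its ratios, 39.7 to 52.2 on chow and 42.7 to 49.3 on high fat, overlapped too. Slc38a2 had 1742, 2596 and 1279.8 in mesentery on chow and 1067, 959 and 1738 in mesentery on high fat (log2 change -0.57 ± 0.29 (SE), adjusted p = 0.854), and Slc1a5 had 857, 929 and 1079.9 in mesentery on chow and 829.6, 911 and 1001 in mesentery on high fat (log2 change -0.06 ± 0.32 (SE), adjusted p = 0.995). Slc16a1 had 129.8, 102 and 439 in mesentery on chow and 152, 219 and 152 in mesentery on high fat (log2 change -0.07 ± 0.46 (SE), adjusted p = 0.995), and its chow spread was set by replicate C.

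An interaction term compared the diet effect of one tissue with that of the other, and 0 of 59 members passed by limma, edgeR or DESeq2, beside 0.0045% of all genes by limma, 0.0045% by edgeR and 0.592% by DESeq2. 1 member, Slc7a10, had an unadjusted p under 0.05 (beside 4.71% of all genes). Its diet change was -2.01 in epididymal fat and 0.37 in mesentery, with an interaction of log2 change -2.38 ± 0.96 (SE), adjusted p = 0.959. For Slc2a4 the changes were -2.28 and -0.75 (interaction adjusted p = 1.00). For Slc43a3 they were -0.61 and -0.14 (interaction adjusted p = 1.00). The standard errors of the members' interactions had a median of 0.90 on the log2 scale.

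**Figure D5:**
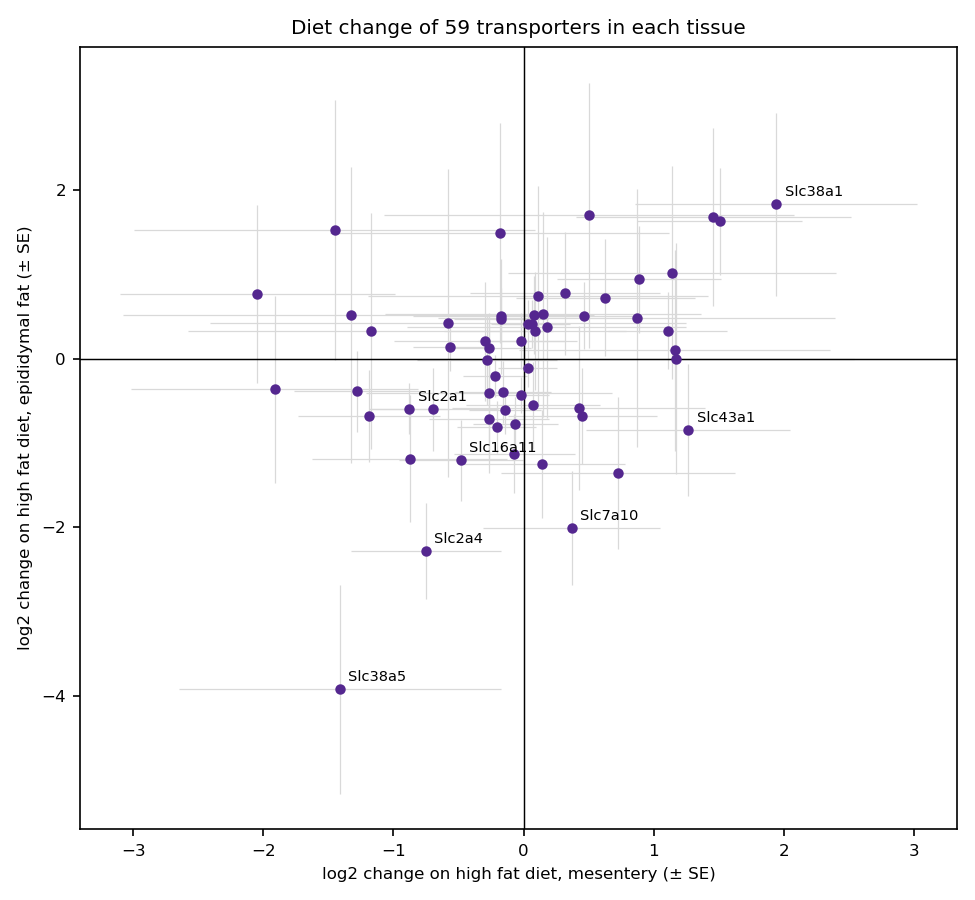
Log2 change on high fat (± SE) of the 59 tested transporters in mesentery (x axis) and epididymal fat (y axis), which share no libraries. No member passed the adjusted threshold on either axis, and Slc38a5, Slc2a4 and Slc7a10 had the lowest values in epididymal fat.

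The 13 genes listed as endothelial nutrient transporters, all members of these families, gave 3 calls on chow (Slc38a5, Slc7a5 and Slc43a2, higher in epididymal fat), 1 on high fat (Slc43a2, higher) and 0 with diet in either tissue. Of all genes, 12.8% were called on chow and 8.34% on high fat, so the high fat count is near that share. Among those not yet described, Slc38a3 was low, with 5.69, 2.69 and 0 in mesentery on chow, 6.55, 1.39 and 0.988 in mesentery on high fat, 25.8, 22.6 and 11.2 in epididymal fat on chow, and 23.6, 28.1 and 22.6 in epididymal fat on high fat (adjusted p = 0.118 for tissue on chow and 0.118 on high fat). Each epididymal library was above each mesentery library on both diets without the gene passing. Slc16a3, the lactate exporter of glycolytic cells, had 69.5, 44.8 and 15.5 in mesentery on chow, 42.1, 74.8 and 59.3 in mesentery on high fat, 50.1, 83.4 and 18.4 in epididymal fat on chow, and 36, 90.0 and 112 in epididymal fat on high fat, which overlap in each comparison. Slc2a3 had 207, 115 and 39.5 in mesentery on high fat and 147, 62.8 and 77.9 in epididymal fat on high fat. Slc7a1 had 141, 125 and 186 in mesentery on chow and 119, 122 and 158 in mesentery on high fat.

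4 members were chosen after their values were seen, because their tissues did not overlap on at least 1 diet. They are only a part of the members without overlap, and such a lack of overlap was common among all genes. On chow 16 of the 59 members (27.1%) were higher in epididymal fat without overlap, beside 3549 of all 22238 genes. Lower without overlap on chow were 3 (5.08%, beside 12.7% of all genes). On high fat 12 were higher (20.3%, beside 15.1%) and 1 was lower (1.69%, beside 11.2%). Slc16a7, a pyruvate and lactate carrier, had 38.7, 4.48 and 33.8 in mesentery on chow, 15.0, 24.9 and 34.6 in mesentery on high fat, 47.0, 116 and 74.6 in epididymal fat on chow, and 179, 82.6 and 142 in epididymal fat on high fat (adjusted p = 0.108 for tissue on chow and 0.0627 on high fat). Slc36a2, a proton-coupled carrier of glycine and proline, had 46.7, 17.9 and 127 in mesentery on chow, 78.6, 79.0 and 45.5 in mesentery on high fat, 125, 155 and 221 in epididymal fat on chow, and 126, 82.6 and 98.4 in epididymal fat on high fat (adjusted p = 0.0632 and 0.661). On chow, mesentery replicate C of Slc36a2 lay just above the lowest epididymal library, whereas Slc16a7 did not overlap on either diet. Slc16a9 had 109, 125 and 251 in mesentery on chow, 89.8, 27.7 and 112 in mesentery on high fat, 45.4, 60.8 and 34.7 in epididymal fat on chow, and 30.4, 23.9 and 31.1 in epididymal fat on high fat (adjusted p = 0.0596 and 0.236). Slc2a8, a glucose transporter of intracellular membranes, had 290.4, 329.7 and 291 in mesentery on chow, 307, 344 and 256 in mesentery on high fat, 416, 396 and 331 in epididymal fat on chow, and 220.3, 319.6 and 319 in epididymal fat on high fat (adjusted p = 0.399 and 0.908). On chow each epididymal library was below each mesentery library for Slc16a9 and above for Slc2a8, and none of the 4 genes passed. Some alternatives did call Slc16a7 on high fat and Slc36a2 and Slc16a9 on chow, DESeq2 among them for Slc16a7 and Slc16a9.

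By family, the Slc7 and Slc43 genes had 3 calls each between tissues on chow, of 11 and 3 tested, and the Slc16 genes 2 of 11, beside 12.8% of all genes. On high fat the Slc16 genes had 4 of 11, the Slc43 genes 2 of 3 and the Slc7 genes 1 of 11, beside 8.34% of all genes. With 11 tested, 1 or 2 calls are near these shares. The median tissue change of the Slc16 genes was 1.11 on chow and 1.32 on high fat. Slc5, Slc36 and Slc3 had 0 on either diet. The Slc5 family of sodium-coupled carriers was low in all groups, with summed normalized counts of its 9 members between 175 and 763 per library. The 12 members below the level for testing were Slc2a2, Slc2a5, Slc2a7, Slc2a12, Slc3a1, Slc5a5, Slc5a11, Slc7a9, Slc7a13, Slc16a5, Slc16a14 and Slc36a3. Of these Slc7a13 had 0 reads in all 6 mesentery libraries and 7.83, 25.2 and 14.3 normalized counts in epididymal fat on chow and 28.1, 4.13 and 12.0 on high fat. Its epididymal mean was 4.58 times a mesentery floor of 3 reads per library on chow and 4.46 times on high fat. These ratios leave out the spread of the epididymal libraries.

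Genes that work with these carriers were described from 6 lists, whose counts of calls are to be read beside the 12.8% of all genes called between tissues on chow and the 8.34% on high fat. Of the 4 chaperone and lactate dehydrogenase genes, Ldhb, the heart-type subunit of lactate dehydrogenase, was higher in epididymal fat on chow, with 271, 341 and 239 in mesentery on chow and 2277, 1407 and 1273 in epididymal fat on chow (log2 change 2.50 ± 0.35 (SE), adjusted p = 5.07e-04). Ldha, the muscle-type subunit, was higher there on high fat, with 7815, 7513 and 7760.3 in mesentery on high fat and 10507, 12460.1 and 17108 in epididymal fat on high fat (log2 change 0.77 ± 0.21 (SE), adjusted p = 0.0435). The Ldha call was lost without any 1 of mesentery replicates A, B and C or epididymal replicates B and C on high fat. The chaperone Bsg had 8670.0, 10774 and 8409 in mesentery on chow and 14165, 12153 and 9024 in epididymal fat on chow, and per kb it exceeded the summed Slc16a1, Slc16a3 and Slc16a7 by a ratio of 44.1 to 186 over the libraries. Among the 6 tested genes of hexose phosphorylation, Hk3, a hexokinase of myeloid cells, was higher in epididymal fat on chow. It had 0, 0 and 0 in mesentery on chow and 19.6, 58.2 and 8.17 in epididymal fat on chow (adjusted p = 0.0167). Its epididymal mean was 8.32 times a mesentery floor of 3 reads per library. Its call was lost without epididymal replicate A and without B. Among 7 genes of glucose transporter trafficking, Lnpep, the aminopeptidase of Slc2a4 storage vesicles, was lower in epididymal fat on chow, with 693, 708 and 687 in mesentery on chow and 399, 490.0 and 405 in epididymal fat on chow (log2 change -0.70 ± 0.20 (SE), adjusted p = 0.0393), a call lost when any 1 of these 6 libraries was left out.

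Of 12 amino acid response genes, 2 enzymes of serine synthesis were higher in epididymal fat on chow, beside 7.32% of all genes, and 1 of them also on high fat, beside 4.91%. Phgdh had 286, 232 and 222 in mesentery on chow and 917, 953 and 586 in epididymal fat on chow (log2 change 1.70 ± 0.29 (SE), adjusted p = 0.00184). Psat1 had 85.4, 82.4 and 60.5 in mesentery on chow and 486, 379 and 303 in epididymal fat on chow (log2 change 2.33 ± 0.35 (SE), adjusted p = 8.33e-04), and it had 204, 103 and 84.0 in mesentery on high fat and 289, 348 and 534 in epididymal fat on high fat (log2 change 1.64 ± 0.35 (SE), adjusted p = 0.0126). The high fat call of Psat1 was lost without mesentery replicate B and without epididymal replicate C. The transcription factor of this response, Atf4, and Asns, Ddit3 and Trib3 did not pass in any tissue or diet comparison, with adjusted p of at least 0.190.

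Of 14 genes of lysosomal amino acid sensing, 3 were higher in epididymal fat on chow, beside 7.32% of all genes, and 2 on high fat, beside 4.91%. Lamtor1, the membrane anchor of the Ragulator complex, had 1215, 1636 and 1163 in mesentery on chow and 2483, 2448 and 2308 in epididymal fat on chow (log2 change 0.87 ± 0.18 (SE), adjusted p = 0.00689), and it had 1922, 1437 and 1548 in mesentery on high fat and 2887, 2891 and 3603 in epididymal fat on high fat (log2 change 0.94 ± 0.18 (SE), adjusted p = 0.00648). Lamtor4 had 689, 784 and 598 in mesentery on chow and 1079, 1093 and 926 in epididymal fat on chow (log2 change 0.59 ± 0.18 (SE), adjusted p = 0.0479), a call lost without any 1 of these 6 libraries, and 657, 776 and 734 in mesentery on high fat and 1113, 1264 and 1593 in epididymal fat on high fat (log2 change 0.86 ± 0.18 (SE), adjusted p = 0.0103), lost without epididymal replicate C. Rragb, a Rag GTPase, had 4.55, 0 and 0 in mesentery on chow and 53.3, 40.8 and 34.7 in epididymal fat on chow (adjusted p = 0.0169), lost without mesentery replicate B and without epididymal replicate A or B. Slc38a9, the lysosomal arginine sensor among the members, had 465, 476 and 263 in mesentery on chow and 289.8, 286 and 336 in epididymal fat on chow (log2 change -0.35 ± 0.29 (SE), adjusted p = 0.501).

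Of 9 tested genes of arginine and glutamine metabolism, 2, Asl and Nos2, were higher in epididymal fat on chow, beside 7.32% of all genes. Asl, which makes arginine, had 280.1, 425 and 124 in mesentery on chow and 1306, 638 and 431 in epididymal fat on chow (log2 change 1.53 ± 0.42 (SE), adjusted p = 0.0301), lost without mesentery replicate A or C and without epididymal replicate A or B. Nos2, the inducible nitric oxide synthase, had 28.5, 40.3 and 184 in mesentery on chow and 562, 565 and 444 in epididymal fat on chow (log2 change 3.10 ± 0.51 (SE), adjusted p = 0.00142), and without mesentery replicate C the change was 3.90. Across these 6 lists, 0 genes passed between diets in either tissue.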

How the data were processed

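The authors deposited 1 table with the normalized count (a signal, at or above 0) of each gene in the 12 libraries. The submitters' processing notes name STAR 2.7.9a, Subread with featureCounts, DESeq2 1.34.0 and mm39. Which annotation was used, and whether counting used strand, is not given in the sources used here. Divided by the worth of 1 read in its library, 100% of the values came out whole (relative tolerance 1e-06), so reads were recovered for edgeR 4.0.16 and DESeq2 1.42.0.

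Groups came from the sample titles. In R 4.3.3, limma 3.58.1 (linear model, moderated with a trend of variance on mean) tested log2(normalized count + 1) of 22238 genes with a mean of 10 or more, using all 12 libraries and 4 group means, with Benjamini-Hochberg adjustment within each of 5 contrasts. The limma fit was tested on simulated data with known changes between tissues on chow. In genes with a mean of at least 50 it recovered 67% of changes of 2 on the log2 scale and 83% of changes of 3. Of its calls, 6.25% were false. In the simulation 100 of 22238 genes carried each size of change, and the libraries were drawn independently. These rates may therefore not hold for the data here. The floor is 3 reads per library and covers counting error only, since the reads carry no molecular identifiers. Levels per kb used exon lengths of the GENCODE mouse annotation, which held all 71 members. The alternatives were pseudocounts of 0.5 and 5, no filter and a mean of at least 50, rescaled columns, edgeR, DESeq2, no trend, only the groups compared, a replicate block, the number range as a covariate, libraries 50 to 53 only, and leaving out each library.

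Named members either passed and reached a mean of 100 in the group where they are higher (up to 10 per direction), are listed endothelial nutrient transporters, or lead their family; pathway genes are named where they passed. 1 member that this rule names is not reported here. The members and lists were chosen with earlier results of these data known.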

Additional observations from a re-analysis of the deposited data

How the results depend on the processing

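Over the 24 alternatives no called result changed direction. The number of members called for tissue on chow, 11, ranged from 5 to 13 when 1 library was left out, and for tissue on the high fat diet, 7, from 1 to 8. For tissue on the high fat diet it was 3 by edgeR and 12 with the libraries numbered 50 to 53 only. By DESeq2 it was 9, without Slc16a12, beside 13.3% of all genes. With rescaled columns it was 5, without Slc16a11 and Slc16a13. For diet in epididymal fat, 0, it was 2 by DESeq2 and 1 with only the groups compared. The counts for diet in mesentery and for the interaction stayed at 0. Of the alternative values of single named genes, 1850 kept their side of the threshold, 136 no longer passed and 24 newly passed. Rescaling the columns to the same total moved the all-gene median by 0.13 for the diet in mesentery, -0.14 for the diet in epididymal fat, -0.18 for tissue on high fat and -0.27 for the interaction on the log2 scale, and no called member changed sign, whereas 4, 4, 7 and 11 of the 59 members did in these 4 comparisons and 0 for tissue on chow. Among uncalled named results, some changes took the other sign. Rescaled, they were 0.0651 for Slc16a1 (diet in mesentery), 0.0742 for Slc1a5 (diet in mesentery), -0.00944 for Slc36a4 (diet in epididymal fat), -0.14 for Slc36a4 (tissue on high fat) and -0.00415 for Slc38a2 (diet in epididymal fat). With libraries 50 to 53 only, they were 0.66 for Slc16a1 (diet in mesentery), 0.0969 for Slc1a5 (diet in mesentery), 0.15 for Slc2a4 (diet in mesentery), 0.10 for Slc2a8 (tissue on high fat), -0.0160 for Slc36a4 (diet in epididymal fat) and -0.000561 for Slc7a10 (diet in mesentery). By DESeq2, they were -0.00741 for Slc36a4 (tissue on high fat), -0.32 for Slc5a3 (diet in mesentery), -0.17 for Slc7a11 (tissue on chow) and -0.00899 for Slc7a7 (diet in mesentery). By edgeR, they were -0.25 for Slc5a3 (diet in mesentery) and -0.13 for Slc7a11 (tissue on chow). With a pseudocount of 5, they were -0.00855 for Slc7a11 (tissue on chow). Leaving out 1 library at a time, the ranges that cross 0 were -0.48 to 0.57 for Slc16a1 (diet in mesentery), -0.38 to 0.80 for Slc16a3 (tissue on chow), -0.14 to 0.0294 for Slc1a5 (diet in mesentery), -0.20 to 0.0888 for Slc2a8 (tissue on high fat), -0.0514 to 0.33 for Slc36a4 (diet in epididymal fat), -0.20 to 0.28 for Slc36a4 (tissue on high fat), -0.00554 to 0.34 for Slc38a2 (diet in epididymal fat), -0.31 to 0.00704 for Slc43a3 (diet in mesentery), -0.29 to 0.99 for Slc5a3 (diet in epididymal fat), -0.42 to 0.82 for Slc5a3 (diet in mesentery), -1.26 to 0.12 for Slc5a3 (tissue on chow), -0.40 to 0.95 for Slc7a10 (diet in mesentery), -0.0114 to 1.36 for Slc7a11 (tissue on high fat), -0.45 to 0.55 for Slc7a11 (tissue on chow) and -0.14 to 0.36 for Slc7a7 (diet in mesentery). With a replicate block the counts were 12 for tissue on chow (11 of them shared), 6 on high fat (5 shared, without Slc16a11, adjusted p = 0.0531, and Slc16a13, 0.0749), and 0 for diet in mesentery, for diet in epididymal fat and for the interaction. Among the pathway genes the block ended the calls of Lamtor4 and Lnpep on chow and of Ldha on high fat. The labels do not say that same-numbered libraries share mice. Deviations of same-numbered libraries correlated at 0.0273 to 0.583 on chow and -0.149 to 0.146 on high fat. With 3 libraries per group, changes of low members such as Slc38a3 and the Slc5 family may be missed at this depth. In the simulated data some changes of genes with a mean of at least 50 were missed too.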
